A study of Drosophila melanogaster with 30 samples.

Results

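The cells described here are 112 single-cell barcodes of the *Drosophila melanogaster* larval lymph gland with an intermediate content of prophenoloxidase (PPO) mRNA, called PPO-intermediate cells. They were proposed as immature crystal cells. A barcode belonged to this range if *PPO1* plus *PPO2* made up from 0.3% to under 2% of its unique molecular identifiers (UMIs, each standing for 1 captured mRNA molecule), and if it had 400 to 5000 genes and at most 10% mitochondrial UMIs. In the 9 libraries used, 21314 barcodes passed the gene and mitochondrial filters, out of 50849 barcodes in all files of the series. The 112 were compared with 254 barcodes of 2% or more (PPO-high cells) and with 9355 barcodes under 0.3% that had at least 5 *Hml* UMIs (Hml cells). The cells were thus selected on *PPO1*, *PPO2* and *Hml*, whose levels are given as a description without a test. The other genes were read from the same barcodes as the PPO UMIs.

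The study profiled larval hemocytes by Drop-seq, in which single cells are captured in droplets with barcoded beads. All groups were of the Oregon-R strain. The lymph gland groups were dissected from larvae infested by wasps at 72 h after egg laying (AEL) and collected at 96 h AEL (4 libraries), and from larvae at steady state collected at 72 (5 libraries), 96 (5 libraries) and 120 h AEL (4 libraries). The PPO-intermediate cells come from the normal libraries of 120 and 96 h AEL, each made from many pooled primary lobes, and the labels call the libraries biological replicates. Circulating hemocytes were also sampled.

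Crystal cells are the hemocytes that carry the prophenoloxidases, the zymogens of the enzymes that make melanin at wounds. In the lymph gland they arise under Notch signaling, which switches on the RUNX factor Lozenge (*lz*), and Lozenge acts with the GATA factor Serpent (*srp*) on crystal cell genes such as the PPO genes. Plasmatocytes, the phagocytic hemocytes, carry *Hml* and *NimC1*, whereas prohemocytes, the progenitors, carry *Tep4*.

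Several libraries and barcodes stood apart. The kept barcodes of a library held 6068692 to 38244591 UMIs in all, but the summed PPO-intermediate cells of a library held only 25499 to 147964 UMIs from 5 to 23 cells, against 179869 to 374473 UMIs in PPO-high cells. Of the kept barcodes 6721 (31.5%) had another kept barcode of the same library that differed by 1 base, in 94.8% of cases at base 10. This held for 33 of the 112 PPO-intermediate barcodes, of which 26 had a neighbor in the same range, 4 a PPO-high and 2 an Hml neighbor. Merging such barcodes left 96 PPO-intermediate, 210 PPO-high and 8998 Hml cells of 17924. The values below are without merging. The counts of genes that passed with merged barcodes, and the named genes that then lost their call, are given at the end. No PPO-intermediate barcode was among the 18 kept barcodes that occurred in more than 1 library. Scrublet, a doublet caller, marked none of the 112 cells, and it marked too few cells in all to have worked, so doublets were not removed. In the top 5% of the Scrublet scores of their library were 13 of the 112 PPO-intermediate cells (11.6%), against 3 of 254 PPO-high cells (1.18%) and 654 of 9355 Hml cells (6.99%). In 120 h replicates 1 and 2 the PPO-intermediate cells had little *N* (Notch) and no *lz* UMI, as detailed below, and 120 h replicate 2 held 7412 CPM (counts scaled to 1000000 UMIs) of the heat shock gene *Hsp23* in PPO-intermediate cells, 7548 CPM in PPO-high and 5865 CPM in Hml cells.

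The PPO share of the 112 cells ran from 0.308% to 1.9997% with a median of 0.835% (0.653% at 120 h and 0.843% at 96 h). It rested on 4 to 386 PPO UMIs per cell, with a median of 43, and 16 cells had fewer than 10. The range is a slice of a continuum and not a separate peak. Just outside the lower bound, 18 cells lay between 0.2% and 0.3%, and just inside it 17 lay between 0.3% and 0.4%. At the upper bound, 26 cells lay between 1.5% and 2% and 33 between 2% and 3%. Both PPO genes had a UMI in 98 of the 112 cells. At least 5 *Hml* UMIs were present in 73 of them (65.2%), in 16 of 35 at 120 h and 57 of 77 at 96 h, and only 8 had none. The median cell of the range held 5001 UMIs, against 7824.5 in PPO-high and 7527 in Hml cells. After thinning to 2000 UMIs per cell, PPO-intermediate cells had a mean of 762 genes, against 612 genes in PPO-high and 760 genes in Hml cells.

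**Figure D1:**
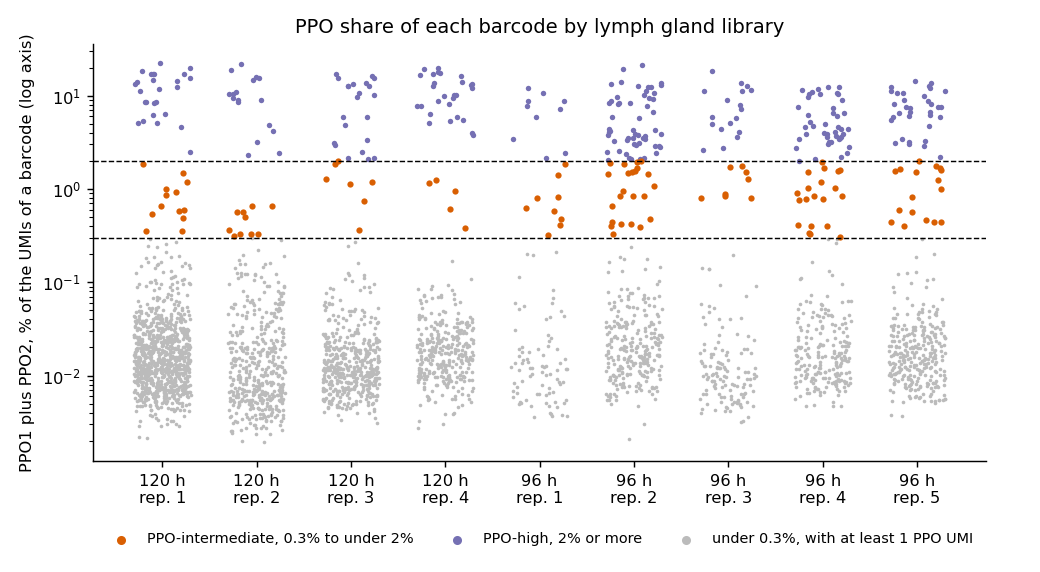
PPO share of each barcode (percent of its UMIs, log axis) in the 9 normal lymph gland libraries, with dashed lines at 0.3% and 2%; barcodes without a PPO UMI are not drawn. The orange PPO-intermediate cells, 5 to 23 per library, fill the space between the bounds without a gap to the purple PPO-high cells.

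The split of PPO UMIs between *PPO1* and *PPO2* was set side by side across the upper bound. *PPO1* gave 44.2%, 49.0%, 27.9% and 59.4% of the PPO UMIs of PPO-intermediate cells in 120 h replicates 1 to 4, and 38.6%, 44.1%, 34.7%, 36.6% and 41.6% in 96 h replicates 1 to 5. In PPO-high cells it gave 41.4% to 44.9% in the same libraries. The means were 41.8% ± 9.0 in PPO-intermediate cells and 43.2% ± 1.2 in PPO-high cells (SD, n = 9 each), and the part was higher in PPO-intermediate cells in 3 of 9 libraries. A test of this split is not reported, since the cells were selected on the same UMIs.

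PPO-intermediate cells made up a smaller part of the lymph gland at 120 h than at 96 h AEL. They were 0.505%, 0.4995%, 0.157% and 0.203% of the kept cells in 120 h replicates 1 to 4, and 1.42%, 0.635%, 0.701%, 0.816% and 0.858% in 96 h replicates 1 to 5. Every 120 h library lay below every 96 h library. The mean shares were 0.341% ± 0.187 at 120 h (SD, n = 4) and 0.887% ± 0.313 at 96 h (SD, n = 5), and the difference was -0.545 points (p = 0.0159 by exact permutation, two-sided, with 0.00794 as the smallest p possible). PPO-high cells were also less abundant at 120 h, with 0.873% ± 0.279 at 120 h (SD, n = 4) and 1.64% ± 0.114 at 96 h (SD, n = 5; exact permutation test, p = 0.00794). Among all cells of 0.3% or more, PPO-intermediate cells accounted for 27.4% ± 9.81 at 120 h (SD, n = 4) and 34.4% ± 7.36 at 96 h (SD, n = 5), and these libraries overlapped (difference -7.03 points, exact permutation test, p = 0.325). With replicate numbers as pairs, 4 pairs cannot give a p below 0.125, which was the value for the share of kept cells (difference -0.553 points).

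At 72 h AEL no kept cell of 2426 fell in the range, which allows a share of up to 0.124%, and 3 PPO-high cells were found, all in replicate 1. In lymph glands of infested larvae at 96 h, PPO-intermediate cells numbered 0, 1, 0 and 2 in replicates 1 to 4, or 3 of 10142 kept cells, together with 8 PPO-high cells. The mean share was 0.0436% ± 0.0567 in infested glands (SD, n = 4), against 0.887% ± 0.313 in normal glands of the same age (SD, n = 5), with no overlap (difference -0.843 points, p = 0.00794 by exact permutation, two-sided, the smallest this design allows). The tables of the infested glands lacked 541 of the 15540 genes in those of the normal glands, and the part of this in the difference was not tested. Intervals and limits from counts cover counting error only.

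**Figure D2:**
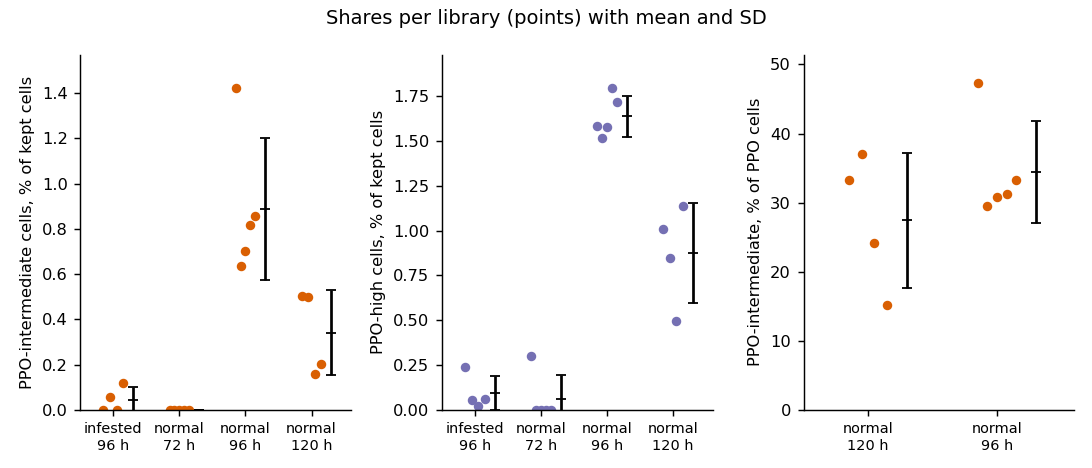
Share of PPO-intermediate (left) and PPO-high cells (middle) among kept lymph gland cells, and of PPO-intermediate cells among all cells of 0.3% or more (right, PPO cells), in percent; points are libraries, bars mean and SD. The 4 libraries of 120 h lie between 0.157% and 0.505% in the left panel, below the 5 normal libraries of 96 h at 0.635% to 1.42%.

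The transcription factors of crystal cell fate were detected in a smaller share of PPO-intermediate than of PPO-high cells. As *lz*, proposed as their marker, was seen in few, the cells are called here by their PPO range and not as a cell type. Thinned to 2000 UMIs, *lz* had a UMI in 6 of 94 PPO-intermediate cells (6.38%, exact 95% interval 2.38 to 13.4), against 68 of 234 PPO-high cells (29.1%) and 7 of 9067 Hml cells (0.0772%, 0.0310 to 0.159). Without thinning the shares were 13.4%, 59.4% and 0.235%. *peb* (pebbled, also hindsight), a zinc finger factor that acts downstream of Notch in crystal cells, was found in 24.5% of PPO-intermediate, 71.4% of PPO-high and 1.41% of Hml cells. *klu* (klumpfuss), another zinc finger factor, was found in 5.32%, 39.3% and 0.254% of the same cells. At least 1 of these 3 genes was seen in 30 of 94 PPO-intermediate cells (31.9%, 22.7 to 42.3), against 84.2% of PPO-high and 1.73% of Hml cells. Before thinning, at least 1 of the 3 was seen in 56 of 112 PPO-intermediate cells (50%), against 93.7% of PPO-high and 5.73% of Hml cells, at median depths of 5001, 7824.5 and 7527 UMIs. Hml cells are not held to express these genes, and the part of free RNA in the shares was not tested. The share with any of the 3 was 25% at 120 h (7 of 28) and 34.8% at 96 h (23 of 66).

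*lz* (X:9284649-9303636, plus strand of BDGP6 in the Ensembl annotation) was low and uneven between libraries. In PPO-intermediate cells it had 0, 0, 36.3 and 0 CPM in 120 h replicates 1 to 4 and 57.6, 20.3, 31.2, 33.8 and 69.0 CPM in 96 h replicates 1 to 5. In PPO-high cells it had 95.7 to 279 CPM, and in Hml cells at most 0.569 CPM. The PPO-intermediate and PPO-high levels did not overlap, with a log2 fold change of -2.60 ± 0.31 (SE; edgeR quasi-likelihood test with library as a block, adjusted p = 1.37e-07), lower in 9 of 9 libraries. *klu* fell by 2.67 ± 0.26 on the log2 scale (adjusted p = 5.45e-09, edgeR), with 0 to 94.6 CPM in PPO-intermediate and 125 to 318 CPM in PPO-high cells. Too few *lz* and *klu* UMIs remained for the test against Hml cells after the filter on low counts. Without that filter both were higher in PPO-intermediate than in Hml cells, by 6.21 (*lz*, adjusted p = 3.46e-18, edgeR) and 4.86 (*klu*, adjusted p = 2.97e-24) on the log2 scale.

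*peb* (X:4617564-4627206) was between the PPO-high and the Hml level in 8 of 9 libraries. It had 95.8, 0, 72.7 and 275 CPM in PPO-intermediate cells of 120 h replicates 1 to 4 and 134, 189, 171, 67.7 and 221 CPM in 96 h replicates 1 to 5. PPO-high cells had 508 to 1418 CPM and Hml cells 2.46 to 15.2 CPM, so that only 120 h replicate 2, at 0, left the gap between them. *peb* fell by 2.83 ± 0.20 on the log2 scale relative to PPO-high cells (adjusted p = 1.74e-10, edgeR) and rose by 4.66 ± 0.58 relative to Hml cells (adjusted p = 0.00244, edgeR).

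*N* (X:3134870-3172221), which encodes the Notch receptor, lay between the PPO-high and the Hml level of the same library in 8 of 9 libraries. PPO-intermediate cells had 134, 103, 618 and 471 CPM in 120 h replicates 1 to 4 and 557, 642, 312, 558 and 579 CPM in 96 h replicates 1 to 5. PPO-high cells had 528 to 973 CPM and Hml cells 72.5 to 132 CPM. The PPO-intermediate level overlapped with PPO-high cells in the upper part. In 120 h replicate 2 it lay within the range of the Hml libraries, and in 120 h replicate 1 just above it. *N* was 4.26-fold higher than in Hml cells (log2 2.09 ± 0.27, adjusted p = 0.00178, edgeR, higher in 9 of 9 libraries) and 2.09-fold lower than in PPO-high cells (adjusted p = 0.000158, edgeR, lower in 8 of 9). Without 120 h replicates 1 and 2, an alternative chosen after these libraries were seen, *N* was higher than in Hml cells by 2.35 on the log2 scale (adjusted p = 3.67e-30, edgeR). Its call against Hml cells was lost under 1 of 25 alternatives, with at least 10 cells per range and library (adjusted p = 0.238). In cells thinned to 2000 UMIs, *N* was found in 58.5% of PPO-intermediate, 71.4% of PPO-high and 17.02% of Hml cells, and within PPO-intermediate cells in 35.7% at 120 h and 68.2% at 96 h.

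**Figure D3:**
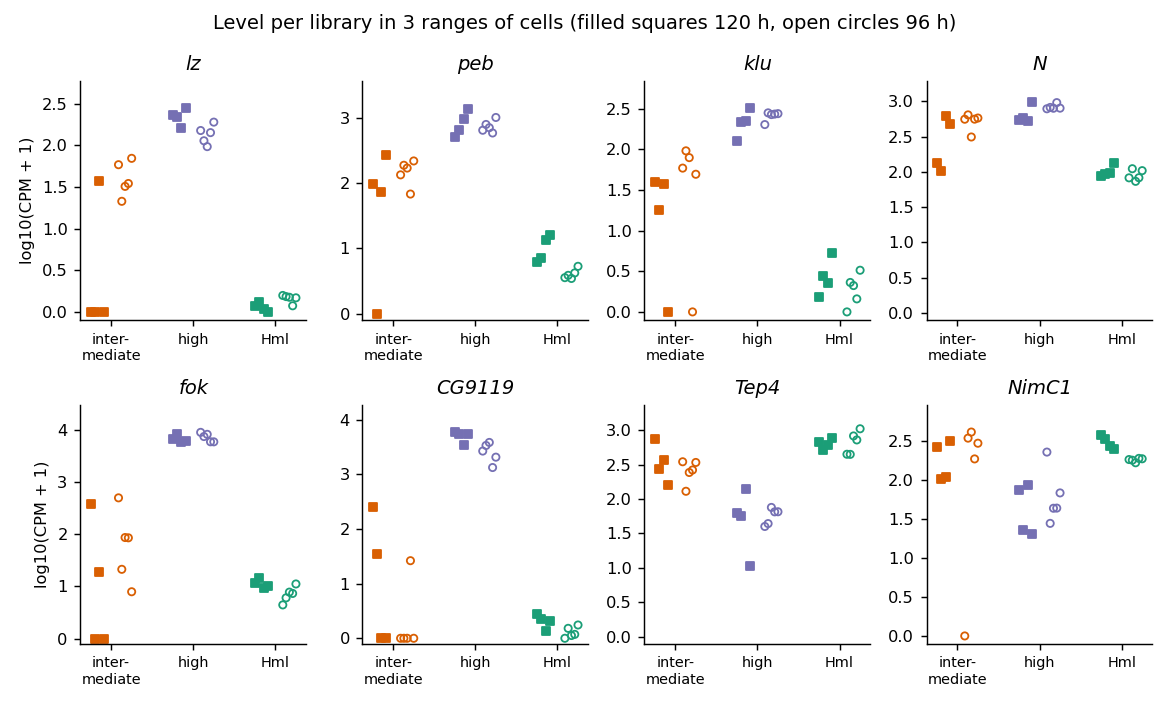
Summed level, log10(CPM + 1), of 8 genes in PPO-intermediate, PPO-high and Hml cells; each symbol is 1 library (filled squares 120 h, open circles 96 h). *N* in PPO-intermediate cells reaches 642 CPM, within the PPO-high range, whereas *fok* and *CG9119* stay far below it; *lz* is at 0 CPM in 3 of the 4 libraries of 120 h.

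Relative to PPO-high cells, 729 of 1458 genes tested (50%) changed, with 386 higher (26.5%) and 343 lower (23.5%) in PPO-intermediate cells. The genes most reduced were led by genes that the study named for its crystal cell clusters. *CG9119* averaged 34.3 CPM ± 81.6 in PPO-intermediate cells and 3760 CPM ± 1619 in PPO-high cells (SD, n = 9 libraries each), with a log2 fold change of -7.52 ± 0.27 (SE, adjusted p = 1.07e-19, edgeR), and it was at 0 in 6 of 9 PPO-intermediate sums. *fok* had 383, 0, 18.2 and 0 CPM in PPO-intermediate cells of 120 h replicates 1 to 4 and 499, 20.3, 85.7, 84.6 and 6.90 CPM in those of 96 h replicates 1 to 5. Against these values, PPO-high cells had 5943 to 9034 CPM of *fok*, and no library came near them (log2 -6.59 ± 0.31, adjusted p = 3.80e-10, edgeR). *NijB* (Ninjurin B, a cell surface adhesion protein), *Pde1c* (a cyclic nucleotide phosphodiesterase), *St3* (a sulfotransferase), *CG17109*, *CG15343*, *CG10467*, *CG10621* and *CG32335* completed the 10 genes with the largest decrease, each with a log2 fold change below -6. All 29 tested genes of a list of 32 that the study named for its crystal cell clusters were lower (median log2 -4.08, against 0.05 over all genes). The study chose that list on these samples, so its direction is not independent evidence.

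Listed genes of copper handling and sugar metabolism also differed between the ranges. Of these, *Atox1*, *Ctr1A*, *CG10467*, *Men*, *aay* and *fbp* also belong to the list of 32 crystal cell cluster genes, so their direction is not separate evidence. Prophenoloxidase is a copper enzyme, and all 4 tested genes of copper transport and chaperones fell relative to PPO-high cells, with a median log2 of -3.70. *Atox1*, a copper chaperone, had 383, 119.8, 490.5 and 39.2 CPM in PPO-intermediate cells of 120 h replicates 1 to 4, and 576, 378, 366, 355 and 317 CPM in 96 h replicates 1 to 5. Against 2064 to 4349 CPM in PPO-high cells these were low, and against 71.3 to 117 CPM in Hml cells they were high in all but 120 h replicate 4. *Ctr1A*, a copper importer, and *Sod*, the copper-zinc superoxide dismutase, fell by 4.08 and 1.27 on the log2 scale. *MtnA*, a metallothionein, fell by 5.79 (adjusted p = 5.30e-10, edgeR) and did not pass the test against Hml cells (log2 0.19 ± 0.52, adjusted p = 0.924). Of 13 tested genes listed for glycolysis, the pentose phosphate pathway and linked enzymes, 8 were lower and 2 higher (*Gapdh1* and *PyK*). Among the lower ones were *Men* (malic enzyme, log2 -4.06), *fbp* (fructose-1,6-bisphosphatase, log2 -3.67) and *aay* (phosphoserine phosphatase, log2 -5.64). The call of *Gapdh1* was lost under 13 of 23 alternatives and that of *PyK* under 2. Of 8 heat shock genes 7 were lower, and of 79 ribosomal protein genes 75 were lower by a median log2 of only -0.38.

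Genes of other hemocytes were higher in PPO-intermediate than in PPO-high cells. Of 12 tested plasmatocyte genes, 10 rose and 1 (*crq*) fell, with a median log2 of 0.74. *NimC1*, a phagocytosis receptor, averaged 226 CPM ± 135 in PPO-intermediate cells and 67.5 CPM ± 64.5 in PPO-high cells (SD, n = 9 each; log2 1.63 ± 0.49, adjusted p = 0.0189, edgeR), higher in 8 of 9 libraries, but it did not pass under 4 of 23 alternatives, among them without 120 h replicates 1 and 2 (log2 1.68, adjusted p = 0.0824), with a lower bound of 0.5%, without the filter on low counts and in 96 h libraries alone. *eater*, another phagocytosis receptor, and *Sr-CI*, a scavenger receptor, rose by 1.34 and 1.18 on the log2 scale. Of 5 prohemocyte genes 4 rose (*Ance*, *CG30090*, *Tep1* and *Tep4*). *Tep4*, a thioester-containing protein, had 748, 274, 363 and 157 CPM in PPO-intermediate cells of 120 h replicates 1 to 4 and 346, 128, 241, 262 and 338 CPM in those of 96 h replicates 1 to 5. PPO-high cells had 9.78 to 137 CPM of *Tep4*, and each library's PPO-intermediate cells lay above its PPO-high cells (log2 1.91 ± 0.21, adjusted p = 1.58e-07, edgeR). The summed level of the 21 plasmatocyte genes in the files was 4792 to 12942 CPM in PPO-intermediate, 1688 to 8317 CPM in PPO-high and 6776 to 9410.2 CPM in Hml cells.

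The largest increase was that of *CG12522*, with 255 CPM ± 198 in PPO-intermediate cells and 9.84 CPM ± 10.9 in PPO-high cells (SD, n = 9 each; log2 4.09 ± 0.37, adjusted p = 1.02e-09, edgeR). *Oat*, ornithine aminotransferase, had 196 to 327 CPM in PPO-intermediate cells at 120 h and 62.3 to 173 CPM at 96 h, against 5.55 to 76.6 CPM and 0 to 22.2 CPM in PPO-high cells of those times (log2 3.10 ± 0.30, adjusted p = 6.09e-09, edgeR). *Nrt* (Neurotactin, an adhesion protein), *vari* (Varicose, a septate junction scaffold) and *AttB* (Attacin-B, an antibacterial peptide) were among the 10 genes with the largest increase. *sd*, which encodes the DNA-binding partner of Yorkie and acts upstream of *lz* in crystal cell specification, was the only one of 6 tested fate regulators that rose, by 1.75 ± 0.26 on the log2 scale, with 139 CPM ± 74.4 in PPO-intermediate and 28.6 CPM ± 20.6 in PPO-high cells (SD, n = 9 each; adjusted p = 8.83e-06, edgeR). *lz*, *peb*, *klu*, *N* and *srp* fell. The 3 tested melanization genes *MP1* (a serine protease), *Spn27A* (a serpin that restrains the cascade) and *yellow-f* (a dopachrome conversion enzyme) rose by 2.06, 1.04 and 1.25. None of *sd*, *MP1*, *Spn27A* and *yellow-f* passed the test against Hml cells, with log2 values of -0.51, 0.47, -0.14 and -0.26.

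Relative to Hml cells 221 of 5628 tested genes changed (3.93%), with 64 higher (1.14%) and 157 lower (2.79%) in PPO-intermediate cells. This share cannot be set against the 50% above, since the deeper Hml sums let more genes into the test. With Hml sums thinned to the depth of the PPO-intermediate sums, 65 of 727 tested genes passed. In simulated data 37% of 2-fold changes were recovered in this comparison, against 80% in that with PPO-high cells. The changed genes were drawn from those tested in each comparison, so these values concern different sets of genes. Of the simulated calls 8.96% were false in this comparison and 3.98% in that with PPO-high cells. Genes that did not pass may still differ. The median log2 over all genes was -0.13 in this comparison and -0.01 under RLE scaling, under which 83 genes were higher and 80 lower, so the balance of directions depended on the scaling. None of 20 plasmatocyte genes passed the test (median log2 -0.07), *NimC1* among them (log2 -0.03 ± 0.39, adjusted p = 0.983, edgeR). Of the 32 crystal cell cluster genes of the study 18 were tested, and 16 of these rose, with a median log2 of 1.97. The study chose that list on these samples, so this direction is not independent evidence either. *N* and *peb* above and *aay*, *tna*, *Men*, *fbp*, *Atox1*, *Ctr1A*, *FKBP59* and *CG10602* below belong to it. In 120 h libraries alone the counts were 14 higher and 85 lower, and in 96 h libraries alone 112 higher and 173 lower.

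By the rule for naming genes, the largest increase was that of *aay*, which encodes the last enzyme of serine synthesis. It had 460.0, 68.5, 18.2 and 39.2 CPM in PPO-intermediate cells of 120 h replicates 1 to 4 and 96.0, 54.1, 77.9, 76.1 and 13.8 CPM in 96 h replicates 1 to 5, against 3.98 to 18.9 CPM in Hml cells. The lowest PPO-intermediate library overlapped with the highest Hml library, but *aay* was higher within every library and 120 h replicate 1 stood far above the others (log2 3.16 ± 0.47, adjusted p = 0.00233, edgeR). *tna* (tonalli, a zinc finger protein) had 102 to 338 CPM in PPO-intermediate cells and 25.04 to 61.8 CPM in Hml cells, without overlap (log2 1.95 ± 0.22, adjusted p = 1.37e-07, edgeR). *Men*, *fbp*, *Atox1* and *Ctr1A* rose by 1.41, 1.94, 1.94 and 1.98 on the log2 scale, and *FKBP59*, an immunophilin, by 1.17. *CG30456*, *Gip*, *CG10602* and *CG3847* were also among the 10 genes named, with log2 fold changes of 0.94 to 1.09. *fok* did not pass the test (log2 3.43 ± 0.88, adjusted p = 0.0864, edgeR), with a higher level than in Hml cells in 6 of 9 libraries.

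Of 14 tested genes of the Notch pathway and the Enhancer of split complex, 3 rose relative to Hml cells and none fell. Besides *N* these were *neur* (Neuralized, an E3 ligase that activates Notch ligands; log2 1.40 ± 0.33, adjusted p = 0.00344, edgeR) and *E(spl)m3-HLH*, a transcriptional target of Notch (log2 2.29 ± 0.43, adjusted p = 0.000139, edgeR). *E(spl)m3-HLH* rested on the 96 h libraries, with 8.46 to 60.8 CPM in PPO-intermediate and 1.78 to 8.25 CPM in Hml cells, and was at 0 CPM in 3 of the 4 PPO-intermediate sums of 120 h. In the 120 h libraries alone its fold change had the opposite sign (log2 -0.85, adjusted p = 0.901). *E(spl)mbeta-HLH* was lower than in PPO-high cells (log2 -1.45, adjusted p = 1.66e-08) and did not pass the test against Hml cells (log2 0.35, adjusted p = 0.418).

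Of 7 tested prohemocyte genes 4 fell relative to Hml cells (*CG30090*, *IM18*, *Tep1* and *Tep4*), and *CecA1* fell as well. *IM18* was at 0 in 5 of 9 PPO-intermediate sums and at most 76.7 CPM, in 120 h replicate 1, against 34.8 to 471 CPM in Hml cells (log2 -4.37 ± 0.68, adjusted p = 0.00446, edgeR). *CecA1*, a cecropin, had 518, 51.4, 109 and 0 CPM in PPO-intermediate cells of 120 h replicates 1 to 4 and 13.5 to 76.1 CPM at 96 h, against 388 to 555 CPM and 726 to 1150.3 CPM in Hml cells of those times (log2 -3.34 ± 0.57, adjusted p = 0.0124, edgeR). Only 120 h replicate 1 reached the level of Hml cells. In 120 h libraries alone *IM18* and *CecA1* did not pass (adjusted p = 0.337 and 0.210, edgeR), nor did they with at least 10 cells per range and library. *Tep4* fell by 1.29 ± 0.22 on the log2 scale (adjusted p = 0.00823, edgeR), but did not pass under RLE scaling (adjusted p = 0.0567). The 10 genes named for their decrease were *CG3348*, *CG6006*, *CR43855*, *CG42566*, *mthl6* and *Tre1* (both G protein-coupled receptors), *GILT3* (a thiol reductase), *CG10131*, *CG43210* and *lectin-24A*, a C-type lectin, of which *CG3348* averaged 16.4 CPM ± 15.99 in PPO-intermediate and 118 CPM ± 40.4 in Hml cells (SD, n = 9 each; log2 -2.76 ± 0.32, adjusted p = 2.24e-09, edgeR).

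Of 22 tested mitosis genes, 6 fell relative to Hml cells and none rose (*Incenp*, *aurB*, *ncd*, *polo*, *stg* and *tum*). The 22 had a median log2 of -1.02, against -0.13 over all genes tested, of which 2.79% were called lower. As above, the deeper Hml sums let more genes into this test. *polo*, a mitotic kinase, had 0 to 51.4 CPM in PPO-intermediate cells and 25.5 to 68.7 CPM in Hml cells, and *stg*, the phosphatase that triggers mitosis, had 0 to 135 CPM and 23.5 to 138 CPM, with its call lost under 12 of 25 alternatives. The calls of *polo* and *aurB* were lost under 2 and 5 of 25 alternatives, for each with 120 h libraries alone among them. The summed mitosis genes had 441 CPM ± 205 in PPO-intermediate, 140 CPM ± 63.8 in PPO-high and 718 CPM ± 206 in Hml cells (SD, n = 9 each), and none of them could be tested against PPO-high cells. Of 19 DNA replication genes none passed the test (median log2 -0.57). Of 17 tested genes listed for glycolysis, the pentose phosphate pathway and linked enzymes, 4 were higher and 3 lower. The higher ones, *Men*, *fbp*, *aay* and *CG10467*, also belong to the crystal cell cluster list of the study. The lower ones were *Gapdh1*, *Gapdh2* and *Tpi*, and the call of *Gapdh1* was lost under 13 of 25 alternatives. Markers of heart and muscle, fat body and ring gland, which surround the lymph gland, had no UMI in 102, 109 and 98 of the 112 cells. Summed per list they reached 57.5, 171 and 76.7 CPM in the highest PPO-intermediate library, against 22.2, 5.71 and 46.6 CPM in the highest Hml library. The fat body markers were at 0 in all PPO-intermediate cells of 96 h, and their part in the 120 h values was not tested.

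Across bands of PPO share, the genes did not climb together. Pooled over the 9 libraries, *N* had 392, 409 and 584 CPM in cells of 0.3 to 0.6%, 0.6 to 1% and 1 to 2% PPO, against 753 and 772 CPM in those of 2 to 5% and 5% or more, 244 CPM below the range (0.1 to 0.3%) and 96.9 CPM in Hml cells. *peb* had 79.2, 122 and 206 CPM in the 3 bands of the range, and 597 and 908 CPM above it. *fok* had 48.4, 130 and 95.2 CPM in the range, then 804 and 9822 CPM above it. *fok* thus gained most above 5%. The bands mix the times in unequal parts, with 16 of 40, 9 of 29 and 10 of 43 cells of the range from 120 h. *N* had 109, 212 and 649 CPM in the 3 bands at 120 h and 552, 459 and 568.2 CPM at 96 h, so that the order of the pooled bands did not hold at 96 h. *Tep4* ran the other way, with 365, 274 and 249 CPM in the range, 126.4 and 31.5 CPM above it and 680 CPM in Hml cells. *lz* had 17.6, 52.2 and 30.7 CPM in the range, from 4, 12 and 10 UMIs, with exact Poisson intervals that overlapped, and 104 and 202 CPM above it.

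**Figure D4:**
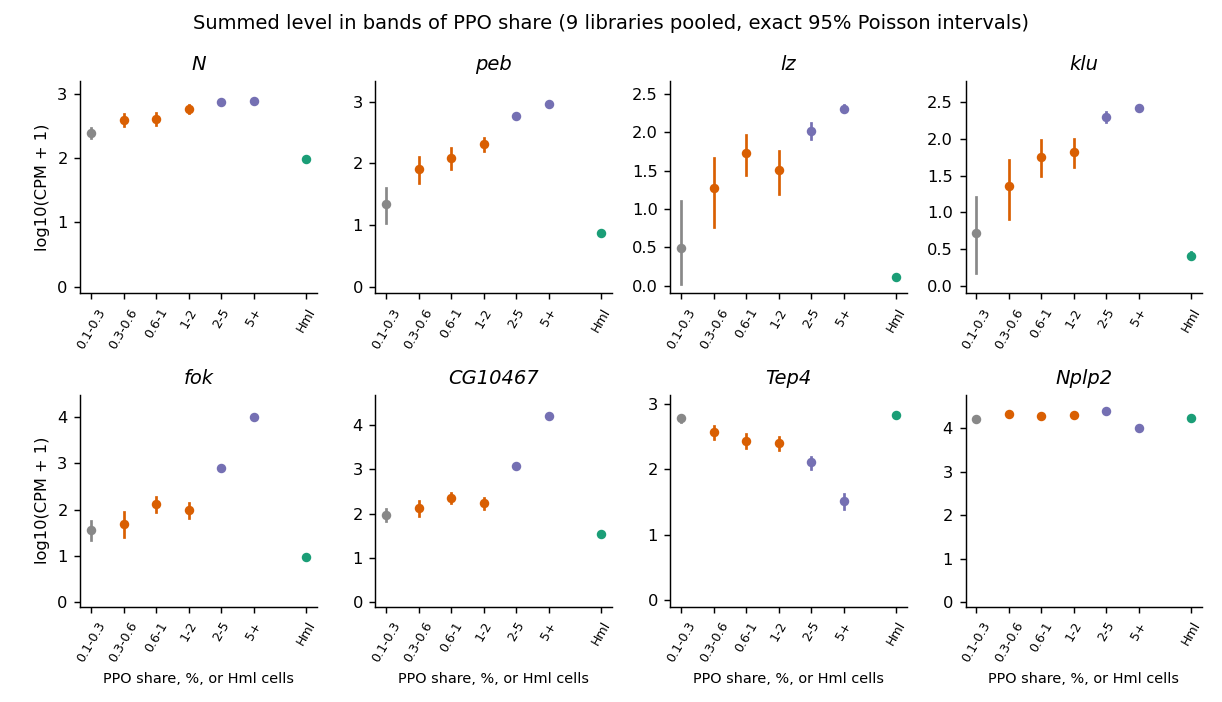
Summed level, log10(CPM + 1), of 8 genes in bands of PPO share (percent) and in Hml cells, 9 libraries pooled; points are levels and bars exact 95% Poisson intervals for counting error. The 3 orange bands are PPO-intermediate cells: *N* has 392, 409 and 584 CPM in them (both times pooled) and *Tep4* 365, 274 and 249 CPM, while *fok* is at 95.2 CPM in the last orange band, against 9822 CPM at 5% or more.

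Each gene's level above Hml cells was also expressed as a percent of its level in PPO-high cells above Hml cells, over the means of the 9 libraries. PPO mRNA itself stood at 11.1%, a value largely set by the PPO bounds that defined the ranges. *N* stood at 52.7%, *klu*, *peb* and *lz* at 16.6%, 16.03% and 15.6%, and *tna* at 12.5%. *Atox1* stood at 8.87%, *Ctr1A* and *Men* at 4.53% and 4.51%, *aay* at 2.39%, *CG15343* at 2.35%, *fok* at 1.60%, *CG10467* at 1.59%, *CG9119* at 0.895% and *MtnA* at 0.529%. These values were also taken at each time, without a test between the times. At 120 h *lz* stood at 4.05%, *tna* at 6.17% and PPO mRNA at 7.85%. At 96 h they stood at 30.5%, 19.7% and 15.3%. The *lz* value of 120 h rested on 2 UMIs, with 3 of 4 libraries at 0. *klu* stood at 9.60% at 120 h and 21.3% at 96 h, and *N* at 41.6% and 59.3%. Single libraries of 120 h ran from 1.86% to 121% for *N*. In 96 h replicate 2, PPO mRNA stood at 15.3%, *N* at 75.1%, *peb* at 23.2% and *fok* at 0.203%. In 120 h replicate 1, PPO mRNA, *fok*, *CG15343*, *CG9119*, *aay*, *CG10467* and *Men* stood at 6.59%, 5.45%, 6.91%, 4.18%, 8.14%, 4.08% and 7.33%, with *N* at 10.3% and *peb* at 18.04%. Other genes of this library were more spread, with *St3* at -0.837%, *lz* at -0.0759%, *CG17109* at 2.77%, *Pde1c* at 9.54% and *klu* at 30.4%. The part of doublets and free RNA in these levels was not tested.

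Between 120 h and 96 h, the PPO-intermediate cells differed in 26 of 794 tested genes (3.27%), with 16 higher (2.02%) and 10 lower (1.26%) at 120 h. *Nplp2* is named as a neuropeptide-like precursor, and the study describes it as an apolipoprotein. It had 2013, 5118, 5086 and 5726 CPM in PPO-intermediate cells of 120 h replicates 1 to 4 and 43299, 22188, 24984, 23844 and 21885 CPM in those of 96 h replicates 1 to 5, without overlap. It was 6.13-fold lower at 120 h (log2 -2.62 ± 0.37, adjusted p = 0.0181, edgeR). *Trx-2*, a thioredoxin, had 422, 479, 436 and 353 CPM at 120 h and 865 to 1417 CPM at 96 h (log2 -1.33 ± 0.23, adjusted p = 0.0101, edgeR). *Ppn*, the matrix protein papilin, averaged 375 CPM ± 165 at 120 h (SD, n = 4) and 1322 CPM ± 570 at 96 h (SD, n = 5), with 1 library of 96 h within the range of 120 h (log2 -1.95 ± 0.39, adjusted p = 0.0208, edgeR). *Idgf3*, a chitinase-like growth factor, and *sty* (Sprouty, a receptor tyrosine kinase inhibitor) fell as well.

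*sea*, the mitochondrial citrate carrier, rose at 120 h, with 2549, 2123, 1199 and 2000.1 CPM in PPO-intermediate cells of 120 h replicates 1 to 4 and 538, 479.9, 685, 355 and 469 CPM in those of 96 h replicates 1 to 5. The times did not overlap (log2 1.98 ± 0.24, adjusted p = 0.000183, edgeR), and *sea* was the only one of 20 named genes of this comparison that passed under each of the 22 alternatives. *Oat* rose by 1.39 ± 0.32 on the log2 scale and *GstO3*, an omega class glutathione transferase, by 1.52 ± 0.33 (adjusted p = 0.0264 for both, edgeR), and *CG6770*, *cib* (an actin-binding thymosin), *CG6891* and *Npc2a* (a sterol carrier) rose as well. None of 3 fate regulators, 3 Notch pathway genes and 6 crystal cell cluster genes tested passed, *N* with log2 -0.75 ± 0.41 (adjusted p = 0.304) and *peb* with -0.91 ± 0.58 (adjusted p = 0.366). Without 120 h replicates 1 and 2, 8 genes passed, 4 in each direction, and *Nplp2* did not (log2 -2.32, adjusted p = 0.125, edgeR). *Nplp2* also lost its call with the replicate block, with at least 10 cells and with a lower bound of 0.5%, with log2 values of -2.78 to -2.32 over all 22 alternatives.

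**Figure D5:**
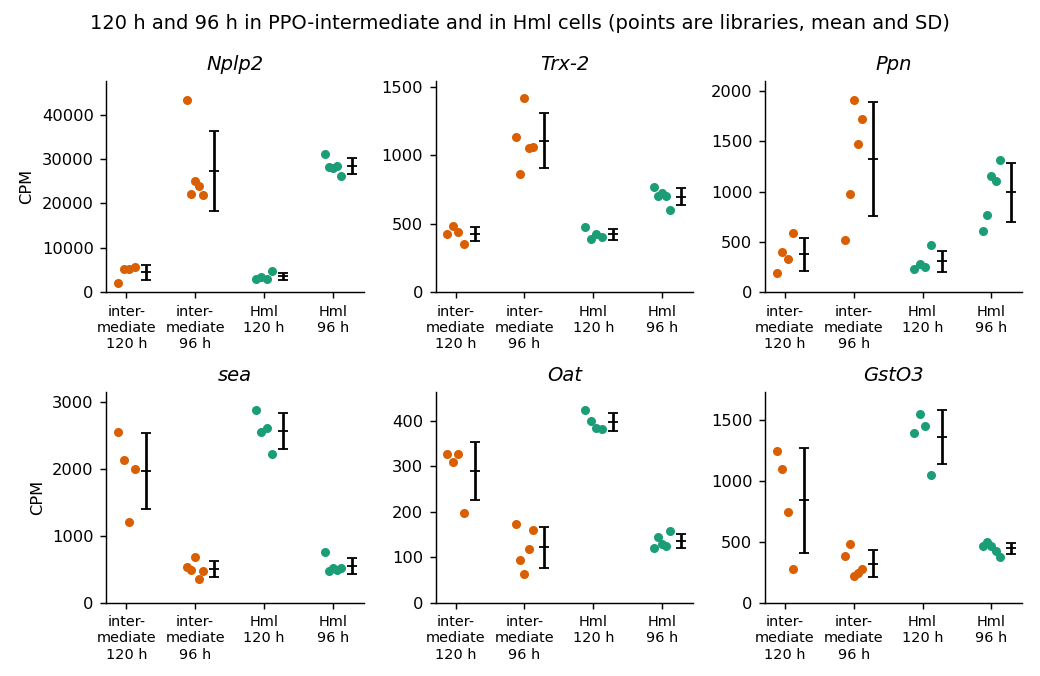
CPM of 6 genes in PPO-intermediate cells (orange) and Hml cells (green) at 120 h and 96 h AEL; points are libraries, bars mean and SD. *Nplp2* is at 2013 to 5726 CPM at 120 h and 21885 to 43299 CPM at 96 h in PPO-intermediate cells. In Hml cells it is also lower at 120 h.

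Hml cells of the same libraries were compared in the same way. Tested as an interaction, the difference between 120 h and 96 h itself differed between PPO-intermediate and Hml cells in 57 of 6264 genes (0.91%), with 2 higher (0.0319%) and 55 lower (0.878%). Under RLE scaling 20 passed, and with Hml sums thinned to the depth of the PPO-intermediate sums 2 passed of 985 tested. *Nplp2* had 2956 to 4782 CPM at 120 h and 26114 to 31160.0 CPM at 96 h in Hml cells, and its interaction was 0.14 ± 0.29 on the log2 scale (95% interval -0.43 to 0.71, adjusted p = 0.918, edgeR). *sea*, *Oat*, *GstO3* and *Ppn* did not pass either, with interactions of -0.59, -0.40, -0.41 and -0.38. In simulated data the interaction test recovered only 3% of 2-fold and 30% of 4-fold changes. Genes that did not pass may thus still differ in their change between the times. *Trx-2* passed (log2 -0.88 ± 0.21, adjusted p = 0.0152, edgeR), with 422 CPM ± 52.4 at 120 h and 1107 CPM ± 200.1 at 96 h in PPO-intermediate cells, against 422 CPM ± 38.6 and 699 CPM ± 61.5 in Hml cells at those times (SD, n = 4 at 120 h and 5 at 96 h), but the call was lost under 11 of 22 alternatives.

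Among the genes that passed, *Ect3*, a beta-galactosidase, and *CG18446* passed under each of the 21 alternatives in which they were tested. The alternative with thinned Hml sums, under which 2 of 985 genes passed, did not include them. *Ect3* averaged 184 CPM ± 125 at 120 h and 50.5 CPM ± 50.4 at 96 h in PPO-intermediate cells, and 107 CPM ± 21.1 at 120 h and 3.86 CPM ± 2.26 at 96 h in Hml cells (SD, n = 4 at 120 h and 5 at 96 h), so that it was higher at 120 h by less in PPO-intermediate cells (log2 -3.37 ± 0.46, adjusted p = 1.90e-07, edgeR). *CG18446* averaged 64.2 CPM ± 31.4 at 120 h and 123 CPM ± 59.5 at 96 h in PPO-intermediate cells, against 61.9 CPM ± 38.8 and 12.9 CPM ± 3.58 in Hml cells at those times. *peb* averaged 111 CPM ± 117 at 120 h and 157 CPM ± 58.7 at 96 h in PPO-intermediate cells, against 9.80 CPM ± 4.91 and 3.08 CPM ± 0.750 in Hml cells (log2 -2.72 ± 0.46, adjusted p = 4.90e-05, edgeR). With the Hml sums thinned, the interaction of *peb* was 0.17 (adjusted p = 0.952), so its value depended on the depth of the Hml sums. *N* was just outside the threshold (log2 -1.18 ± 0.31, adjusted p = 0.0501).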

How the data were processed

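Per the labels, lymph glands were dissociated with papain and Liberase and run on Drop-seq. The authors aligned reads with STAR 2.5.3a to BDGP6, set a minimum of reads per barcode and deposited UMI counts per gene and barcode, not normalized. The members and gene lists were chosen with earlier results of these data known. Barcodes with 400 to 5000 genes and at most 10% mitochondrial UMIs were kept; UMIs of each range were summed per library (at least 5 cells) and tested with edgeR 4.0.16 in R 4.3.3 (TMM, filterByExpr, robust quasi-likelihood, adjusted p under 0.05 by Benjamini-Hochberg). The model had library as a block for PPO-intermediate against PPO-high or Hml cells, and time, or time by range with the library block, otherwise. Shares used exact permutation tests (scipy 1.17.1), and the Scrublet scores came from scanpy 1.11.5. Detection was compared after thinning to 2000 UMIs. CPM values are not scaled by TMM. The code was checked on simulated data with 200 changed genes.

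The named genes were the 10 with the largest change in each direction among those past the threshold, with a mean over libraries of 50 CPM or more where the gene was higher and, in fits with the library block, the same direction in every library (mitochondrial and rRNA genes left out), plus members of the lists whose role is known. Alternatives were DESeq2 1.42.0, RLE scaling, no filter on low counts, PPO, *Hml*, mitochondrial and rRNA genes left out, at least 10 cells, a lower bound of 0.5%, at least 5 PPO UMIs, the top 5% of Scrublet scores or cells above 2 SD of UMIs left out, Hml cells of at least 2 *Hml* UMIs, the replicate or library block, and each library left out. Chosen after the data were seen were the robust quasi-likelihood setting itself (its legacy form is the alternative), thinned Hml sums, 120 h replicates 1 and 2 left out, each time alone, and merged barcodes. Coordinates are those of the Ensembl annotation of BDGP6.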

Additional observations from a re-analysis of the deposited data

Results flagged for a closer look

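In 17 of 59 groups of 4 or 5 libraries 1 library lay far from the others by its gap to the next. For normally distributed values chance sets 1 apart in about 1 of 20 such groups. That rate does not hold for levels from few UMIs, so the count does not measure an excess. A group with a single library above 0 is always flagged, as for *lz* and *IM18* at 120 h (2 and 4 UMIs) and *CG9119* at 96 h (3 UMIs). The 96 h replicate 1 had the highest share of PPO-intermediate cells (1.42%) and the highest part of them among all cells of 0.3% or more (47.4%), and it also had the highest *fok* (499 CPM), *Atox1* (576 CPM) and *Nplp2* (43299 CPM) of the 96 h libraries. The 120 h replicate 1 stood above the other 120 h libraries in *fok* (383 CPM), *CG15343* (1131 CPM), *CG9119* (249 CPM), *aay* (460.0 CPM), *CG10467* (1054 CPM) and *IM18* (76.7 CPM). The 96 h replicate 3 stood apart in *PPO2* (7936 CPM), *N* (312 CPM, the lowest) and *Ctr1A* (210.3 CPM). The 120 h replicate 3 was the only one of its time with *lz* (36.3 CPM), 96 h replicate 4 the only one with *CG9119* (25.4 CPM), and 120 h replicate 4 had the lowest *Oat* (196 CPM).

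The change between 120 h and 96 h differed between PPO-intermediate and Hml cells by the edgeR interaction test for *GstD7* (log2 3.18), *crq* (-2.66), *peb* (-2.72), *CG9279* (-2.77), *Fmr1* (-3.18), *Ect3* (-3.37), *CG18446* (-3.56), *Gal* (-4.06), *Ama* (-4.19), *CG6910* (-6.79) and *CG14806* (-10.74). All PPO-intermediate sums of 120 h were at 0 for *CG14806*, so that its value is no measure of size.

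Circulating hemocytes, which entered no comparison, also held barcodes of the same PPO range. Their mean share was 2.27% in normal larvae at 120 h (36 of 1582 kept barcodes, 3 libraries) and 3.66% at 96 h (34 of 856, 3 libraries).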

How the results depend on the processing

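The differences in share kept their direction under every alternative run. With a replicate block the difference was -0.553 points between the times and -0.850 points between infested and normal glands, both at p = 0.125 (exact sign-flip test, the smallest 4 pairs allow). Same-numbered libraries did not deviate together (correlations -0.080 to 0.055), so the numbers do not pair them. Leaving out 1 library gave -0.608 to -0.411 and -0.906 to -0.709 points. The difference in the part among all cells of 0.3% or more ran from -10.2 (without 120 h replicate 2) to -2.94 points (without 120 h replicate 4), and that in the *PPO1* part of PPO UMIs, -1.37 points with all libraries, turned without 120 h replicate 3 (-3.51 to 0.227).

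Against PPO-high cells 729 genes passed, 1183 without a filter on low counts, 717 with merged barcodes and 681 to 717 with 1 library left out. Against Hml cells 221 passed, 139 with DESeq2 (74 higher, 65 lower), 361 without the filter, 85 with at least 10 cells and 95 with no replicate block. In the same comparison 65 of 727 tested passed with thinned Hml sums and 163 with merged barcodes. In 120 h libraries alone 99 passed, and 152 to 311 did with 1 library left out. Between the times 26 passed, 42 with DESeq2, 132 without the filter, 41 with at least 10 cells, 14 with a lower bound of 0.5%, 7 with the replicate block, 50 with merged barcodes, 8 without 120 h replicates 1 and 2, and 8 (without 96 h replicate 5) to 48 (without 120 h replicate 4). For the interaction 57 passed, 9 with DESeq2, 20 under RLE, 19 with at least 10 cells, 31 with a lower bound of 0.5%, 27 with a UMI ceiling, 35 with merged barcodes, 101 with the legacy method, 2 with thinned Hml sums, and 17 (without 96 h replicate 2) to 74 (without 120 h replicate 1). The median interaction over all genes was -0.32 on the log2 scale and -0.07 under RLE.

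The direction turned for *E(spl)m3-HLH* against Hml cells in 120 h libraries alone (-0.85) and for the interaction of *peb* with thinned Hml sums (0.17). With 1 library left out, the interaction ran from -7.87 to 1.23 for *CG6910* and from -4.83 to 4.41 for *Gal*, turning without 96 h replicate 2. The cause was not tested. Merging barcodes lost the calls of *Tep1*, *Gapdh1*, *CG3847*, *CR43855*, *stg* and *aurB* against Hml cells. It also lost those of *Npc2a* and *sty* between the times and of *Trx-2*, *Ama*, *Gal* and *CG14806* for the interaction. Of the called genes named, 47 of 56 against PPO-high cells, 10 of 37 against Hml cells, 1 of 20 between the times and 2 of 12 for the interaction passed under all alternatives in which they were tested. Depth limits the PPO-intermediate sums, which hold 25499 to 147964 UMIs.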
